A study of Mus musculus with 10 samples.

Results

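The epidermal growth factor receptor (EGFR) family was followed in regulatory T (Treg) cells through 9 genes out of the 55809 gene rows counted. They are the receptors Egfr, Erbb2, Erbb3 and Erbb4, the ligands Areg, Hbegf, Ereg and Tgfa, and the inhibitor Errfi1, and each was found by its exact gene name. Egfr was chosen on its values in this comparison, and the other 8 genes were taken as its relatives, its ligands and a protein that holds it back. Read pairs were counted for 6 of the 9 genes, and all 6 passed the filter of a mean count of at least 10. Erbb4, Ereg and Tgfa had no count in any of the 10 libraries.

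All mice carried a Foxp3 allele fused to an auxin-inducible degron (AID), a tag that a plant E3 ligase recognises in the presence of an auxin, with a ZsGreen reporter and Cre made from the same allele. In the R26-TIR1(F74G) group (6 libraries) the ROSA26 allele held that ligase, TIR1(F74G), with mCherry, behind a stop that Cre removes. In the R26-WT group (4 libraries) it held neither. The CAG promoter drove TIR1 in any cell that had once made Cre from the Foxp3 allele, and the labels do not give the sort gate. The study describes a general gate on CD4+ TCRb+ ZsGreen+ cells, with mCherry+ added for R26-TIR1(F74G) mice, so that where it was used the gate differed together with the genotype, and it describes bulk RNA-seq samples as double sorted. Both groups had received the auxin analog 5-ph-IAA for 14 days, so Foxp3 protein was open to degradation in the R26-TIR1(F74G) group alone, while the presence of TIR1 and mCherry cannot be told apart from the loss of Foxp3. The study names 14 days of degradation for hemizygous Foxp3-AID/y mice. Elsewhere it took heterozygous females, to avoid the mildly raised inflammation of such males. Where these mice were hemizygous, a change in the surroundings of the Treg cells cannot be told apart from their own loss of Foxp3. RNA came from Treg cells of spleen and lymph nodes, the labels give neither age nor sex, and each library carries its own mouse number in its library name. Libraries held 24158699 to 54795718 counted read pairs. The 7 Treg markers, Foxp3 and Cd4 among them, were counted in every library, with Cd3e, part of the T cell receptor complex, the most abundant at a mean of 46227 normalized counts (counts divided by DESeq2 size factors).

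EGFR and its 3 relatives are receptor tyrosine kinases of the cell surface. A ligand makes them pair, the paired kinases phosphorylate each other, and adaptors then carry the signal to the RAS-ERK and PI3K pathways. ErbB2 binds no ligand of its own and ErbB3 has little kinase activity, so both work mainly as partners. The ligands are made as membrane proteins and cut free by ADAM proteases. In Treg cells the family is best known through amphiregulin, the product of Areg, which some tissue Treg cells release during repair. The question here was whether the relatives, ligands and inhibitor shared the difference that singled out Egfr.

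The start of a gene is the region read by the factors that switch it on. The RefSeq windows used here, of 250 bases before and 50 bases after the start (build GRCm38.p6), covered 6 of the 9 genes, and those of Erbb3, Hbegf and Ereg were not analysed here. Each window printed here was found again as 1 exact match in GRCm39, the build of the counting files, and its coordinates are those of GRCm39. The windows of Egfr (chr11:16701953-16702252, plus strand), Areg (chr5:91287208-91287507, plus strand) and Errfi1 (chr4:150939277-150939576, plus strand) are shown as 1 receptor, 1 ligand and the inhibitor. For Errfi1 the second of 2 RefSeq windows is shown, the one that overlaps the counted gene. Capitals mark GGGCGG, the GC box, and TATAAA, the TATA box, each on either strand, so that a GC box of the minus strand reads CCGCCC.
Egfr: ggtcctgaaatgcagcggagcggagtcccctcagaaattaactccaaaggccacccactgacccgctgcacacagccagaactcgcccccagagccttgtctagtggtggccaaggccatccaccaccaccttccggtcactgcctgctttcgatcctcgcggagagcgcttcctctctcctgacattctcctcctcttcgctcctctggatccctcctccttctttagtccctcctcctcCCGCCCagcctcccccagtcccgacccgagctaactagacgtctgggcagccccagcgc
Areg: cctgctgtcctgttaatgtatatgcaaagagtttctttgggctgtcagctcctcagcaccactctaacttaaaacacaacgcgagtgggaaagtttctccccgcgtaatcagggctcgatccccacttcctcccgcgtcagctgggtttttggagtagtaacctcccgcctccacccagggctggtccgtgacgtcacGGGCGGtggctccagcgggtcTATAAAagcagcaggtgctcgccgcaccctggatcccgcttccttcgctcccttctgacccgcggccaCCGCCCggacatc
Errfi1: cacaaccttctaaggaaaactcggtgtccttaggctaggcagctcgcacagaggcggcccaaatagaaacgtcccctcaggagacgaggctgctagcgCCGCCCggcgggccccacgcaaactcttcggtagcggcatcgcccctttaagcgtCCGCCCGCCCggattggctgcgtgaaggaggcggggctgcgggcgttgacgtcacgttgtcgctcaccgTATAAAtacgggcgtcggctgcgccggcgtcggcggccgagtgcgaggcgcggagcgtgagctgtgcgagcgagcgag
The Egfr window held 1 GC box and no TATAAA. The Areg window held 2 GC boxes and 1 TATAAA. The Errfi1 window held 3 GC boxes, of which the second and the third share 2 bases, and 1 TATAAA. Of all 32851 RefSeq windows of this length, 35.7% held a GC box and 13.6% TATAAA. Neither a forkhead motif (TGTTTAC, on either strand, in 3.65% of all windows) nor an AP-1 motif (TGANTCA, in 7.81%) was found in these 3 windows. The letters say nothing of which factor was bound, and the counts, taken per gene, do not say which start was used.

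Egfr (chromosome 11, 16702203 to 16868158, plus strand, GRCm39) encodes the receptor for EGF, amphiregulin and several other ligands. The 4 R26-WT libraries held 9.55, 1.97, 3.26 and 4.23 normalized counts, from 12, 2, 4 and 5 read pairs. The 6 R26-TIR1(F74G) libraries ranged from 61.9 to 127 normalized counts with a median of 87.2, from 35 to 137 read pairs each. Every R26-TIR1(F74G) library therefore lay above every R26-WT library, and the lowest of the former was 6.48 times the highest of the latter. The group means were 4.75 ± 3.33 (SD, n = 4) and 91.8 ± 28.2 (SD, n = 6). The log2 fold change was 4.25 (SE 0.43), or 19.0-fold with a 95% interval of 10.6 to 33.9. Leaving out each library in turn gave values between 4.01 and 4.85. All of these values describe the libraries that chose the gene and are given with no test.

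The R26-WT level rests on few reads. Over the 4 libraries together 23 read pairs fell on Egfr, for which the exact Poisson 95% interval is 14.6 to 34.5, against 523 (479 to 570) over the 6 R26-TIR1(F74G) libraries. These intervals cover counting error only, because copies made by PCR were not marked with molecular identifiers. No exon of Egfr overlapped an exon of another counted gene. In bulk RNA, more cells that contain the transcript and more transcript per cell cannot be told apart.

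**Figure D1:**
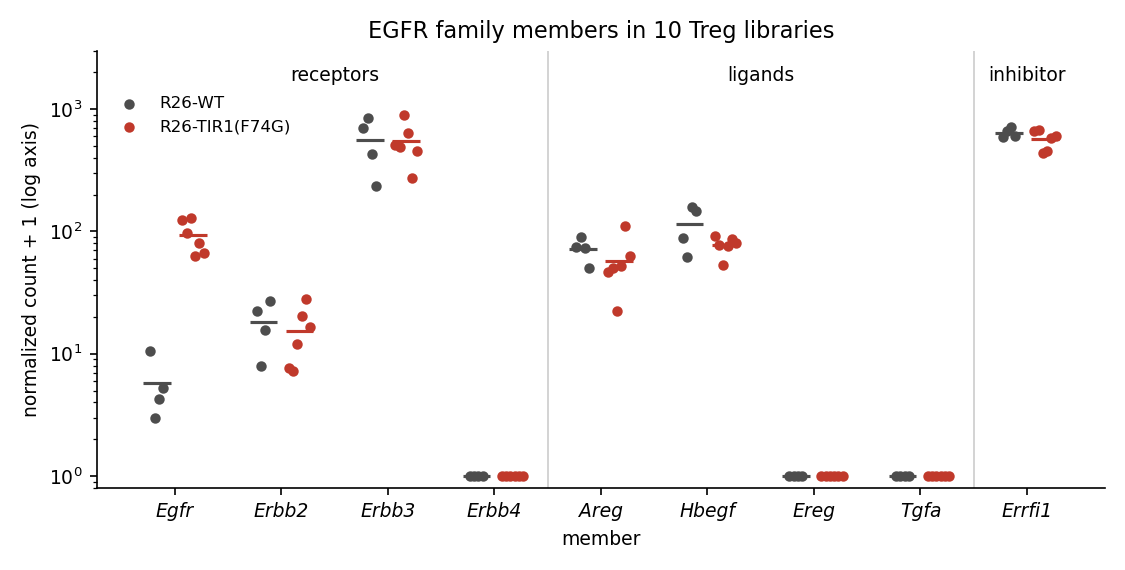
Normalized counts of the 9 members, with 1 added, on a log axis. Each point is a library (4 R26-WT in grey, 6 R26-TIR1(F74G) in red), and bars are group means. Egfr is the member whose groups do not overlap, and Erbb4, Ereg and Tgfa lie at 0 counts in all libraries.

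None of the 5 other tested members passed the test. By DESeq2 with p adjusted over all 16363 tested genes, 0 of these 5 were called, 1 had an unadjusted p under 0.05, and edgeR also called 0. Of all tested genes 1.74% were called by DESeq2 (1.4% higher and 0.336% lower in R26-TIR1(F74G)) and 0.373% by edgeR, and a count of 0 among 5 genes does not stand apart from that background. The groups of none of these 5 lay apart, and groups lay apart in 2.37% of all tested genes. Those of Egfr lay apart through the values that chose it. The 5 other members had log2 fold changes below 0, from -0.57 to -0.03, where the median over all tested genes was 0.00063.

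Erbb3 (chromosome 10, 128403392 to 128425521, minus strand), the kinase-poor partner receptor, was the receptor with the most reads. The 4 R26-WT libraries held 702, 849, 427 and 235 normalized counts, and the 6 R26-TIR1(F74G) libraries ranged from 273 to 899.9 with a median of 499. The highest library was 3.61 times the lowest in R26-WT and 3.30 times in R26-TIR1(F74G), and the groups overlapped nearly in full. The log2 fold change was -0.03 (SE 0.35, 95% interval -0.71 to 0.65, DESeq2 adjusted p 0.99996), and its sign turned in 5 of the 10 fits that left out 1 library. Libraries also differed in how counts depended on transcript length. The 3 libraries in which longer transcripts had the most counts for their length, R26-TIR1(F74G) replicate 7 and R26-WT replicates 2 and 1, held the 3 highest Erbb3 values, and R26-WT replicate 4 and R26-TIR1(F74G) replicate 9, among the 3 with the fewest, held the 2 lowest. The part of this dependence in the spread of Erbb3 was not tested.

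Erbb2 (chromosome 11, 98303296 to 98328542, plus strand), the partner without a ligand, was near the bottom of what could be tested. The 4 R26-WT libraries held 21.5, 6.89, 14.6 and 26.2 normalized counts, and the 6 R26-TIR1(F74G) libraries ranged from 6.16 to 27.0 with a median of 13.4. The groups covered almost the same range. The log2 fold change was -0.29 (SE 0.52, DESeq2 adjusted p 0.99996), and its 95% interval of -1.30 to 0.72 is wide on both sides. It shares 0.173% of its exon bases with Mien1. Erbb4 (chromosome 1, 68071345 to 69147218), the neuregulin receptor, had 0 counts in all libraries, for which the limit of 3 read pairs is 0.0547 to 0.124 CPM (counts scaled to the library total) per library.

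Amphiregulin was counted in every library. Areg (chromosome 5, 91287458 to 91296291, plus strand) held 73.3, 88.5, 71.6 and 49.0 normalized counts in the R26-WT libraries, and 21.3 to 110 with a median of 50.3 in the R26-TIR1(F74G) libraries. The R26-TIR1(F74G) libraries lay on both sides of the R26-WT range. The log2 fold change was -0.31 (SE 0.37, 95% interval -1.04 to 0.41, DESeq2 adjusted p 0.99996). Replicate 9 was the highest of the R26-TIR1(F74G) libraries for both Areg and Il4, and without it the Areg value was -0.62. Without replicate 7, the lowest, it was -0.14, and without R26-WT replicate 2 it was -0.19.

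Hbegf (chromosome 18, 36637980 to 36648858), the gene of heparin-binding EGF, had the lowest p of the 5. The R26-WT libraries held 87.6, 61.0, 156 and 147 normalized counts, and the R26-TIR1(F74G) libraries ranged from 51.8 to 90.4 with a median of 77.9. Replicates 3 and 4 of R26-WT stood above all other libraries, while replicates 1 and 2 lay among the R26-TIR1(F74G) values. These replicates 3 and 4 were also the 2 libraries in which longer transcripts had the fewest counts for their length, and the 2 in which they had the most, R26-TIR1(F74G) replicate 7 and R26-WT replicate 2, held the 2 lowest Hbegf values. Hbegf has 4834 exon bases, and Erbb3, with 6016, had its 2 highest values in these latter 2 libraries. The part of this dependence in the spread of Hbegf was not tested. The log2 fold change was -0.57 (SE 0.28, 95% interval -1.12 to -0.02). Its unadjusted p of 0.0438 did not hold over all genes (DESeq2 adjusted p 0.685), and 6.86% of all tested genes had an unadjusted p under 0.05. With the length trend removed the value was -0.64 (DESeq2 adjusted p 0.580). Without R26-WT replicate 2 the value was -0.77, with an adjusted p of 0.0961, and without R26-WT replicate 3 it was -0.37, with an adjusted p of 0.99986.

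Areg lies in a run of EGF-like ligand genes on chromosome 5, with Epgn, Ereg and Btc within 376 kb. Ereg, the gene of epiregulin, ends 45.9 kb before Areg starts and had no read pair in any library, whereas Areg had 643 over all libraries. Btc, the gene of betacellulin, had 844 and Epgn, the gene of epigen, 57. Tgfa (chromosome 6, 86172205 to 86252701), another EGFR ligand, had 0 counts. For Ereg and Tgfa the limit per library is that of Erbb4, and over all 446657894 read pairs together it is 0.00672 CPM.

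Errfi1 (chromosome 4, 150938376 to 150953349, plus strand), also called Mig6, encodes a protein that binds the EGFR kinase and blocks it, and it is itself induced by growth factors. The R26-WT libraries held 589, 658, 713 and 597 normalized counts, and the R26-TIR1(F74G) libraries ranged from 433 to 672 with a median of 587. The groups overlapped, at 639 ± 58.0 (SD, n = 4) in R26-WT and 566 ± 101 (SD, n = 6) in R26-TIR1(F74G). The log2 fold change was -0.17 (SE 0.16, DESeq2 adjusted p 0.99996), with a 95% interval of -0.48 to 0.14.

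**Figure D2:**
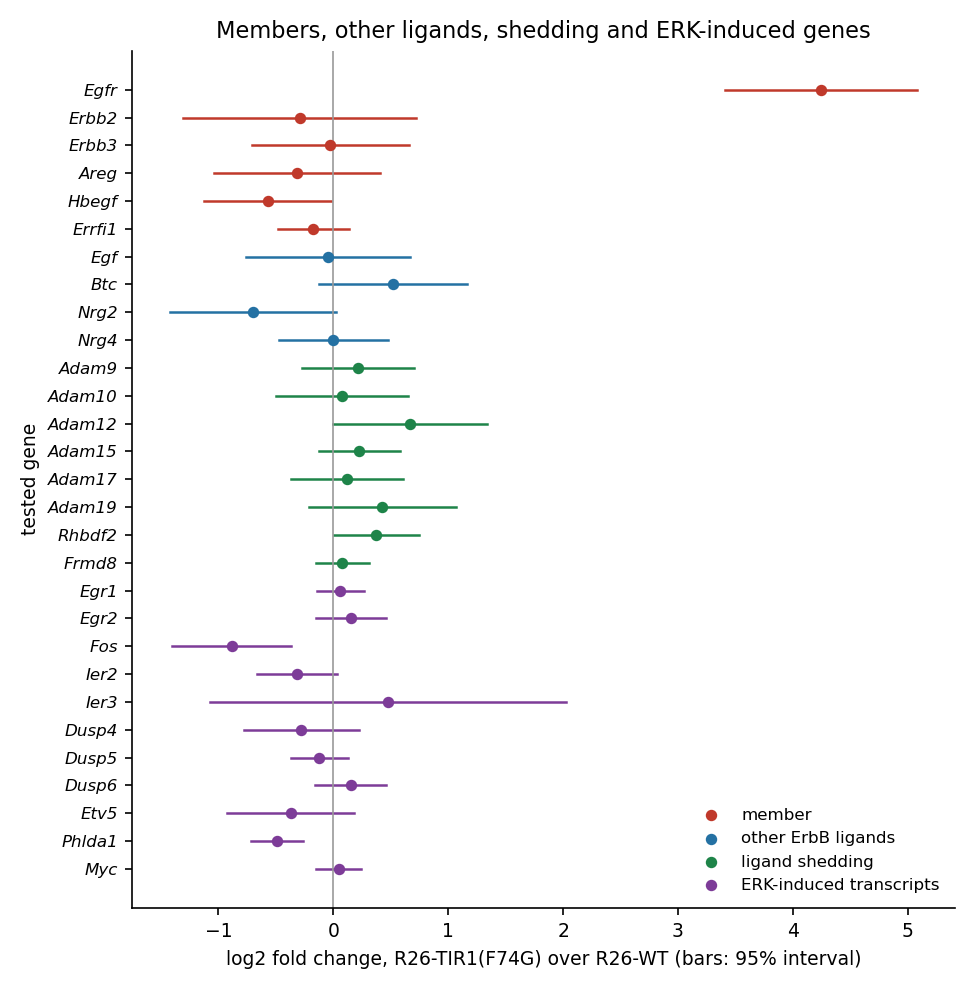
Log2 fold changes, R26-TIR1(F74G) over R26-WT, of the tested members and of the tested genes of 3 lists (other ErbB ligands, ligand shedding and ERK-induced transcripts), with 95% intervals as bars, not adjusted for the number of genes. Egfr lies at 4.25 (3.41 to 5.08), the value that chose it, the other members lie between -0.57 and -0.03, and the genes of the 3 lists between -0.88 and 0.67.

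Levels of different genes were compared as normalized counts per kb of exon length. In R26-WT the order was Errfi1 (178 per kb), Erbb3 (92.0), Areg (58.1), Hbegf (23.4), Erbb2 (3.32) and Egfr (0.42), and the library ranges of Erbb3 and Areg overlapped while those of all other neighbours did not. In R26-TIR1(F74G) it was Errfi1 (158), Erbb3 (90.2), Areg (46.7), Hbegf (15.8), Egfr (8.11) and Erbb2 (2.75). There Egfr stood above Erbb2 with no overlap and overlapped Hbegf, and each of the first 4 genes overlapped the next. Egfr passed the count filter through its R26-TIR1(F74G) libraries alone, and in that group 8.11% of tested genes had a smaller mean per kb. Erbb3 remained the most abundant receptor of the family, with a mean per kb 11.1 times that of Egfr in R26-TIR1(F74G).

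The other receptor tyrosine kinases were read for comparison. Of 54 such genes, 13 had no count, 27 had too few counts to be tested, and 14 were tested. DESeq2 and edgeR each called 0 of the 14, and 1 had an unadjusted DESeq2 p under 0.05. That gene, named after its values were seen, was Epha1, an ephrin receptor, at 33.8 ± 11.4 normalized counts (R26-WT, SD, n = 4) against 15.5 ± 5.68 (R26-TIR1(F74G), SD, n = 6). Its log2 fold change of -1.14 had an SE of 0.38 and did not pass the test (DESeq2 adjusted p 0.112). The median of the 14 was 0.12. Ephb6, a kinase-dead ephrin receptor of T cells, had the most counts and a value of 0.07 on the log2 scale (SE 0.27, DESeq2 adjusted p 0.99996), and Igf1r, the receptor of insulin-like growth factor 1, followed with -0.16 (SE 0.18, DESeq2 adjusted p 0.99996). By mean per kb, 20 of the 54 stood above Egfr in R26-WT and 10 in R26-TIR1(F74G).

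**Figure D3:**
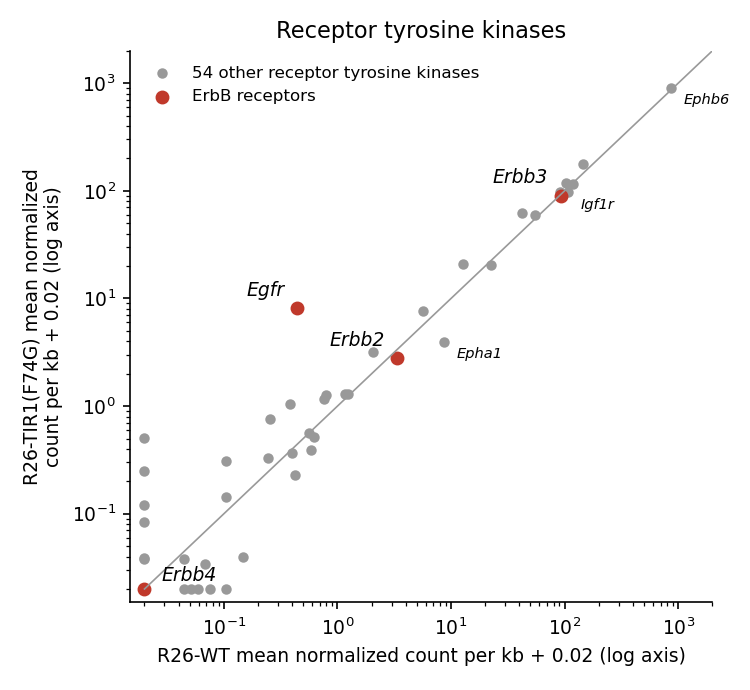
Mean normalized counts per kb of 58 receptor tyrosine kinases in R26-WT and R26-TIR1(F74G), both on log axes after adding 0.02. The line marks equal levels. Egfr lies above it, from 0.42 to 8.11 per kb, while Erbb2 and Erbb3 lie near it and Erbb4 is at 0 in both groups.

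No gene was called among the remaining EGF-like and neuregulin ligands. Of 7 such genes 4 were tested, DESeq2 and edgeR called 0, none had an unadjusted p under 0.05, and the median log2 fold change was -0.02. Egf itself held 94.5 ± 21.3 normalized counts (R26-WT, SD, n = 4) against 91.7 ± 48.8 (R26-TIR1(F74G), SD, n = 6). Its log2 fold change was -0.04 (SE 0.36, DESeq2 adjusted p 0.99996). For Btc it was 0.52 (SE 0.33, 95% interval -0.13 to 1.16, DESeq2 adjusted p 0.99996). The neuregulin genes Nrg1 and Nrg3 had no counts.

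No gene was called either among proteins that cut the ligands free or guide that step. All 8 tested of 9 genes had log2 fold changes above 0. Their median of 0.22 ran from 0.10 without R26-WT replicate 4 to 0.42 without R26-WT replicate 2. In this list DESeq2 and edgeR called 0, where DESeq2 called 1.74% of all tested genes and edgeR 0.373%. An unadjusted DESeq2 p under 0.05 was found for 2, and for 6.86% of all tested genes. These 2, named after their values were seen, were the metalloprotease gene Adam12 (0.67, SE 0.34, DESeq2 adjusted p 0.726) and Rhbdf2, the gene of the iRhom2 partner of ADAM17 (0.38, SE 0.19, DESeq2 adjusted p 0.711). Frmd8, which keeps iRhom at the surface, and Adam10, a sheddase, had the most counts, with log2 fold changes of 0.08 (SE 0.12) and 0.08 (SE 0.29) and DESeq2 adjusted p-values of 0.99996.

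The relay inside the cell was expressed, and none of its genes was called. Of 23 adaptor and RAS-ERK genes 21 were tested, with log2 fold changes from -0.18 to 0.29 and a median of 0.01. Of 21 genes that remove or restrain the receptor, such as the ubiquitin ligase genes Cbl and Cblb, 18 were tested, with log2 fold changes from -0.21 to 0.24 and a median of 0.06. In both lists DESeq2 and edgeR called 0 and no gene had an unadjusted DESeq2 p under 0.05. The most abundant relay gene was Stat3, a transcription factor gene (0.07, SE 0.13). The most abundant restraining genes were Sh3kbp1, a partner of Cbl (0.01, SE 0.12), and the phosphatase gene Ptpn1 (0.07, SE 0.12), all with DESeq2 adjusted p-values of 0.99996.

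Among 14 transcripts that ERK signalling is known to induce, 11 were tested, 2 fell by DESeq2 and none rose. The median log2 fold change was -0.12, and 0.336% of all tested genes were called lower. Phlda1, an early gene of growth factor signalling, held 548, 457, 478 and 481 normalized counts in R26-WT and 320.4 to 389 with a median of 342 in R26-TIR1(F74G). Its groups did not overlap, and its log2 fold change was -0.49 (SE 0.12, DESeq2 adjusted p 0.00293). Fos, an immediate early transcription factor gene, held 7013, 3532, 3254 and 2703 in R26-WT and 1635 to 3175 with a median of 2100 in R26-TIR1(F74G). Its groups overlapped, and its log2 fold change was -0.88 (SE 0.26, DESeq2 adjusted p 0.0493). R26-WT replicate 1 alone stood far above the rest for Fos, and without it the value was -0.50 with an adjusted p of 0.463, while Phlda1 without it was -0.43 with an adjusted p of 0.0520. The Fos call held in 2 of the 10 fits that left out 1 library, those without R26-WT replicate 4 and R26-TIR1(F74G) replicate 5. edgeR called neither, with adjusted p-values of 0.244 for Fos and 0.111 for Phlda1. The 9 other tested genes of the list were not called, with log2 fold changes below 0 in 4 (Etv5 -0.37, Ier2 -0.31, Dusp4 -0.28 and Dusp5 -0.12) and above 0 in 5 (Ier3 0.47, Egr2 0.16, Dusp6 0.15, Egr1 0.06 and Myc 0.05).

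Genes that mark amphiregulin-producing tissue Treg cells were counted beside Areg. Of 10 genes 9 were tested, with a median log2 fold change of 0.18, and 1 rose, where 1.4% of all tested genes were called higher. The median turned to -0.05 without R26-TIR1(F74G) replicate 9 and to -0.02 without R26-WT replicate 3. The called gene was Ccr2, a chemokine receptor gene, with 112, 168, 26.9 and 67.7 normalized counts in R26-WT and 106 to 1066 with a median of 474 in R26-TIR1(F74G). The groups overlapped, the log2 fold change was 2.33 (SE 0.67, DESeq2 adjusted p 0.0346), edgeR did not call it (adjusted p 0.210), and the DESeq2 call was lost in 7 of the 10 fits that left out 1 library, all but those without R26-WT replicate 2 and R26-TIR1(F74G) replicates 5 and 6. Of the genes uncalled, Il1rl1, the gene of the IL-33 receptor ST2, is named for its place in both this and the next list, and was not called, at 0.18 (SE 0.31, DESeq2 adjusted p 0.99996), nor was the transcription factor gene Gata3, at -0.12 (SE 0.12, DESeq2 adjusted p 0.99996).

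EGFR on T helper cells has been linked to type 2 cytokines through ST2, and those genes formed another list. Of 7 genes 4 were tested, with a median log2 fold change of 0.43, and 1 rose, against the same 1.4% of all tested genes. Il4, the gene of interleukin-4, held 16.7, 9.84, 7.32 and 10.1 normalized counts in R26-WT and 75.9 to 366 with a median of 110 in R26-TIR1(F74G). The groups did not overlap, and the log2 fold change was 3.76 (SE 0.46, DESeq2 adjusted p 6.35e-13, edgeR adjusted p 0.0109). By DESeq2 2 of the 4 had an unadjusted p under 0.05, Il4 and Il4ra, a receptor chain gene for interleukin-4 that was named after its values were seen and was not called (0.67, SE 0.24, DESeq2 adjusted p 0.158). Il5 and Il13, the other cytokine genes of the list, stayed under the count filter, with 6 and 0 read pairs in R26-WT and 8 and 2 in R26-TIR1(F74G).

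Il4 was also the gene whose profile over the 10 libraries was nearest to that of Egfr. Likeness was the root mean square difference of log2(normalized count + 1), in which level and change both count, and the genes were picked with the same libraries that chose Egfr. The 4 nearest of all tested genes were Il4 (1.11), the channel gene Trpm6 (1.22), the dynein gene Dnah12 (1.31) and Gm15428 (1.31). Trpm6 ranged from 0 to 6.37 normalized counts in R26-WT and from 17.5 to 159 in R26-TIR1(F74G), and Gm15428 from 9.30 to 20.7 and from 45.1 to 109, both with no overlap. Dnah12 overlapped between the groups. None of the 5 other tested members was among these 4.

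**Figure D4:**
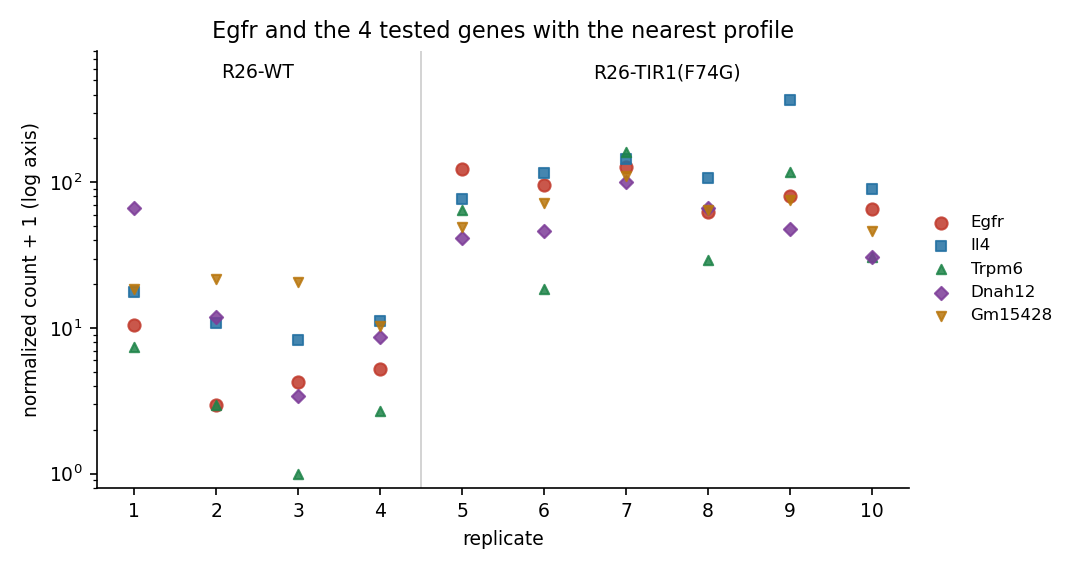
Normalized counts, with 1 added, on a log axis, of Egfr and the 4 tested genes nearest to it in profile, for the 10 libraries by replicate number. In R26-TIR1(F74G) all 5 genes lie above 17 normalized counts, and in R26-WT replicate 1 Dnah12 lies within its R26-TIR1(F74G) range.

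The neighbourhood of Egfr was read for a shared difference. Within 500 kb of the gene lay 20 other gene rows, of which 11 were tested. DESeq2 and edgeR called 0 of the 11, 1 had an unadjusted DESeq2 p under 0.05, and log2 fold changes ran from -0.23 to 0.86, 4 of them above 0. The next genes downstream were Eldr, a noncoding RNA gene that starts 16.4 kb past the end of Egfr (0.31, SE 0.50, DESeq2 adjusted p 0.99996), Fbxo48 at 33.2 kb, an F-box gene (0.86, SE 0.41, DESeq2 adjusted p 0.615), and Plek at 53.0 kb, the gene of pleckstrin (0.32, SE 0.40, DESeq2 adjusted p 0.99996). Fbxo48 was the one with the low unadjusted p, and its groups overlapped, at 7.61 to 27.1 and 18.4 to 46.9 normalized counts. Upstream, the nearest tested gene was Gm12663 at 116 kb (-0.23, SE 0.16, DESeq2 adjusted p 0.99996). The other tested genes, Sec61g, Akt2-ps, Cnrip1, Ppp3r1, Dnaaf10, Pno1 and C1d, lay between -0.19 and 0.21. Egfros, which lies within Egfr on the opposite strand, had 6 read pairs in all, each of them in R26-TIR1(F74G) libraries, too few to be tested.

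**Figure D5:**
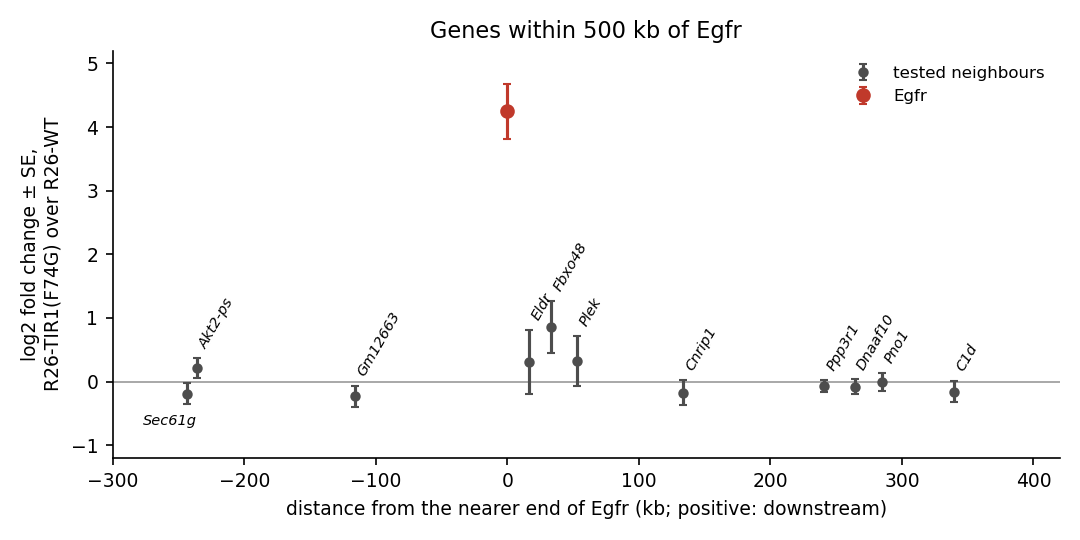
Log2 fold changes with SE of Egfr and the 11 tested genes within 500 kb, by distance in kb from the nearer end of Egfr. The neighbours lie between -0.23 and 0.86, and Egfr at 4.25.

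Egfr is abundant in epithelium and stroma, so markers of other cells were summed in each library. The study describes a general gate on CD4+ TCRb+ ZsGreen+ cells and a double sort, while the labels do not give the gate. How far other cells were removed from these libraries was not tested. Of 10 stroma markers Col3a1 and Dcn were at 0 in every library, 8 had a mean under 1, and the sum ran from 3.38 to 11.4 normalized counts in R26-WT and from 9.24 to 25.7 in R26-TIR1(F74G), led by Col1a1 at a mean of 8.72. The stroma sum was thus also higher on the R26-TIR1(F74G) side, with overlap. Its part in the Egfr difference was not tested. Of 7 epithelial markers Krt5, Krt8, Krt14 and Krt19 were at 0 in every library. The epithelial sum was 249 to 363 in R26-WT and 164 to 291 in R26-TIR1(F74G), and came mainly from Epcam and Cdh1, both genes of epithelial adhesion. Epcam was lower without overlap in R26-TIR1(F74G), at means of 262 and 166, but not called (-0.65, SE 0.20, DESeq2 adjusted p 0.0530). Cdh1, the only other epithelial marker tested, had means of 25.4 in R26-WT and 51.2 in R26-TIR1(F74G) with overlap, and was not called either (1.01, SE 0.64, DESeq2 adjusted p 0.99996). Pecam1, which T cells also express, led the endothelial list, and 4 of its 6 genes had a mean under 1. Leading genes of the remaining lists were Cd68 (macrophage, mean 73.6), Zbtb46 (dendritic cell, 111), Ly6g (neutrophil, 0.69), Cpa3 (mast cell, 109), Cd79b (B cell, 812), Prdm1 (plasma cell, 453), Cd8b1 (CD8 T cell, 1350.0), Itga2b (platelet, 26.9) and Alas2 (erythroid, 11.01). Of all these marker genes DESeq2 called 1, Eomes, a transcription factor gene of CD8 T and NK cells (1.47, SE 0.23, DESeq2 adjusted p 4.54e-08, edgeR adjusted p 0.0161), which was named after its values were seen. The 4 other tested genes of the CD8 T and NK cell list had log2 fold changes of -0.64 (Klrd1), -0.56 (Cd8a), -0.23 (Cd8b1) and 0.26 (Klrb1c), and the list median was -0.23.

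Genes of proliferation moved with the groups as well. Of 18 such genes, all tested, 14 rose and none fell by DESeq2, where 1.4% of all tested genes were called higher, and edgeR called 4, where it called 0.373% of all. Their median log2 fold change was 1.52. Their summed level was 9238 to 13784 normalized counts in R26-WT and 15592 to 25007 in R26-TIR1(F74G), with no overlap. This sum was led by the replication genes Mcm2, at a mean of 5784, and Mcm5, at 3900. Mcm2 overlapped between the groups and was not called (0.52, SE 0.20, DESeq2 adjusted p 0.276), whereas Mcm5 was called (0.66, SE 0.13, DESeq2 adjusted p 0.000176). Cdk1, the kinase that drives entry into mitosis, had a value of 1.40 on the log2 scale (SE 0.21) and was called by both tools (adjusted p 1.12e-08 in DESeq2 and 0.0135 in edgeR). Within R26-TIR1(F74G), replicate 7 had the highest summed level and the highest Egfr count, replicate 8 the next highest summed level (19439) and the lowest Egfr count, and replicate 9 the lowest summed level with an Egfr count of 79.0. The part of dividing cells in the Egfr difference was not tested.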

How the data were processed

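Bulk RNA-seq of Treg cells was analysed from the deposited tables of raw read-pair counts per gene name, 1 table per library, which the authors had not normalized. Per the file headers, featureCounts 2.1.1 counted primary pairs with a mapping quality of at least 30 against GENCODE vM30 (GRCm39), with no strand option. The study's methods name STAR for alignment and the submitters' notes Bowtie2. Per the labels, cDNA was amplified from 1-2 ng of RNA without molecular identifiers, so counting error is a lower limit.

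The 10 libraries (24158699 to 54795718 pairs) were grouped by the genotype in the labels. DESeq2 1.42.0 (R 4.3.3) was run on the 16363 genes whose counts averaged 10 or more, with genotype alone in the design, a two-sided Wald test, and a call at a Benjamini-Hochberg adjusted p under 0.05. Of these genes, 6 had no adjusted p. Intervals are the log2 fold change ± 1.96 SE. edgeR 4.0.16 (quasi-likelihood), TMM scaling, other count filters, removal of the trend on transcript length and leaving out each library were alternatives. Both tools were first tested on simulated counts. Libraries of a group differed by more than sampling noise in all pairs. Members and lists were chosen with earlier results of these data known. Beside the members, the text names called genes of each list (the 2 most abundant where none was called), the most abundant marker of each cell type, tested genes within 500 kb of Egfr and the 5 nearest profiles. Of the genes this rule names, 2 are not reported here. Other genes it names were chosen after their values were seen. The exact permutation test planned for members below the filter had no member to run on, as all 3 had no counts.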

Additional observations from a re-analysis of the deposited data

Results flagged for a closer look

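In 72 groups of values (the members, the other genes named by rule and the library totals, each in R26-WT and R26-TIR1(F74G)), the highest or lowest library was compared with its nearest neighbour, and chance marks about 1 in 20 such groups. No member stood out in this way, and 3 values of other genes did. Il4 reached 366 normalized counts in replicate 9 of R26-TIR1(F74G), far above the other 5 libraries of its group, and without that library its log2 fold change was 3.26. Dnah12 had 65.3 in R26-WT replicate 1 and Plek had 43.8 in the same library, each far above the other 3 R26-WT libraries.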

How the results depend on the processing

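The number of genes called was 284, and 61 with edgeR. Leaving out 1 library gave from 187 (without R26-WT replicate 4) to 346 (without R26-WT replicate 2). DESeq2 with TMM scaling gave 278, no count filter 274, a mean count of at least 50 gave 233 and removal of the length trend 377. Under all 15 alternatives 0 of the other tested members were called (Erbb2 left the fit with a mean count of at least 50), and Egfr kept its rank among the members per kb with RPKM from total counted read pairs. Erbb3 changed sign in 5 fits, with a range of -0.28 to 0.26 over the fits that left out 1 library. When 1 library was left out, the log2 fold change ran from -0.77 to -0.37 for Hbegf, from -0.62 to -0.14 for Areg, from -0.58 to -0.02 for Erbb2 and from -0.23 to -0.11 for Errfi1, and the lowest adjusted p under any alternative was 0.0961 for Hbegf and 0.684 for Erbb2. In the same fits the list medians ran from -0.21 to 0.09 for the other ErbB ligands, -0.07 to 0.27 for the other receptor tyrosine kinases, -0.04 to 0.12 for the relay, -0.07 to 0.20 for restraint, -0.16 to -0.04 for the ERK-induced transcripts (-0.20 with a mean count of at least 50) and 0.27 to 0.60 for the type 2 genes. Fos, at a main value of -0.88, ran from -1.04 to -0.50 and Ccr2, at 2.33, from 1.91 to 2.77, with adjusted p-values of 0.0129 to 0.463 and 0.00346 to 0.222. Il4 stayed called in every alternative (3.26 to 4.04 when 1 library was left out). The cause of these differences was not tested. No paired analysis was possible because R26-WT libraries are numbered 1 to 4 and R26-TIR1(F74G) libraries 5 to 10. Alternatives planned for members below the count filter were not run, since all 3 such members had no counts. Egfr in R26-WT and Erbb2 rest on few read pairs, which limits the precision of their fold changes.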
